A study of Oryza sativa with 6 samples.

Results

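The genes described here are rice genes named after a core or linker histone, followed in developing seeds in which the MADS-box gene *OsMADS29* had been silenced. They were taken by symbol or synonym (H1, H2A, H2B, H3 or H4, alone or with a number). The RefSeq gene table held 9 such names, 5 of them paired with a probe set of the array, out of 17905 genes that had at least 1 probe set to themselves. All 9 were H2B genes, and no H1, H2A, H3 or H4 name was found in that table, so the values below are those of *H2B.5*, *H2B.6*, *H2B.7*, *H2B.10* and *H2B.11*, each read by 1 probe set. *H2B.2*, *H2B.3*, *H2B.4* and *H2B.9* had no probe set paired with them and were not analysed here. The names do not tell which H2B genes depend on DNA replication and which are replacement variants, so no such division was made. The centromere histone gene *CenH3*, whose name falls outside that rule, is given beside them.

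RNA came from whole seeds of PB1, a rice variety, collected 5 to 10 days after pollination (stage S3 in the labels). Affymetrix rice genome arrays were hybridised with 3 wild-type (WT) samples and 3 samples from plants carrying an RNA interference construct against *OsMADS29* (MADS29_KD), at the same stage and of the same variety. Neither the promoter of the construct nor whether the MADS29_KD samples came from different transformed lines is given in the sources used here. The p-values therefore measure the spread between these samples only.

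H2B is a core histone that pairs with H2A, and these dimers complete the nucleosome around which DNA is wrapped. Most histone transcripts accumulate while DNA is being copied, because each round of replication has to supply histones for the new strand. In plants these transcripts carry poly(A) tails, so that oligo(dT)-primed labelling picks them up. Cells of young endosperm and embryo divide, and endosperm cells then go through further rounds of DNA copying without division.

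*OsMADS29* was checked first. Its log2 intensity was 7.16, 6.60 and 7.30 in WT replicates 1 to 3 and 5.17, 5.11 and 4.90 in MADS29_KD replicates 1 to 3. Every MADS29_KD array lay below every WT array, with a log2 difference of −1.96 ± 0.21 (SE, limma adjusted p = 0.00725). The question of the comparison was which transcripts of the seed differ when this gene is silenced, and the same fit is used for the histone genes. Arrays of the same group correlated at 0.990 to 0.998 over probe sets and those of different groups at 0.955 to 0.963, and the number of arrays limits the precision. Background, read from probe sets foreign to rice, was 2.78 to 2.92 on the log2 scale. WT replicate 2 and MADS29_KD replicate 1 stood apart from the rest of their groups, since the signal from the 5′ end of the actin transcript was at background there (2.33 and 2.75) and 5.86 to 6.42 on the other 4 arrays. The 3′ actin signal was 10.4 to 11.1 on all 6.

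*H2B.5* and *H2B.6* fell in MADS29_KD seeds, and none of the 5 H2B genes rose. Over the 5 genes the median log2 difference was −0.99, against 0.01 over the 57194 probe sets tested. Here a gene was called at a limma adjusted p under 0.05, over all probe sets. Of all probe sets 6.28% were called lower and 5.07% higher, and 2.49% were called lower by at least 2-fold, as were both of these H2B genes. Among the 19520 probe sets above background on all arrays of a group, 18.3% were called lower and 12.9% higher, and 4 of the 5 H2B genes belong to these. The median over those 4 genes was −1.18, against −0.07 over the 19520. As the seeds were measured in bulk, fewer dividing cells and less H2B RNA per cell cannot be told apart. The labels give only a window of 5 to 10 days for both groups. A difference in seed age within it cannot be told apart from these either.

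**Figure D1:**
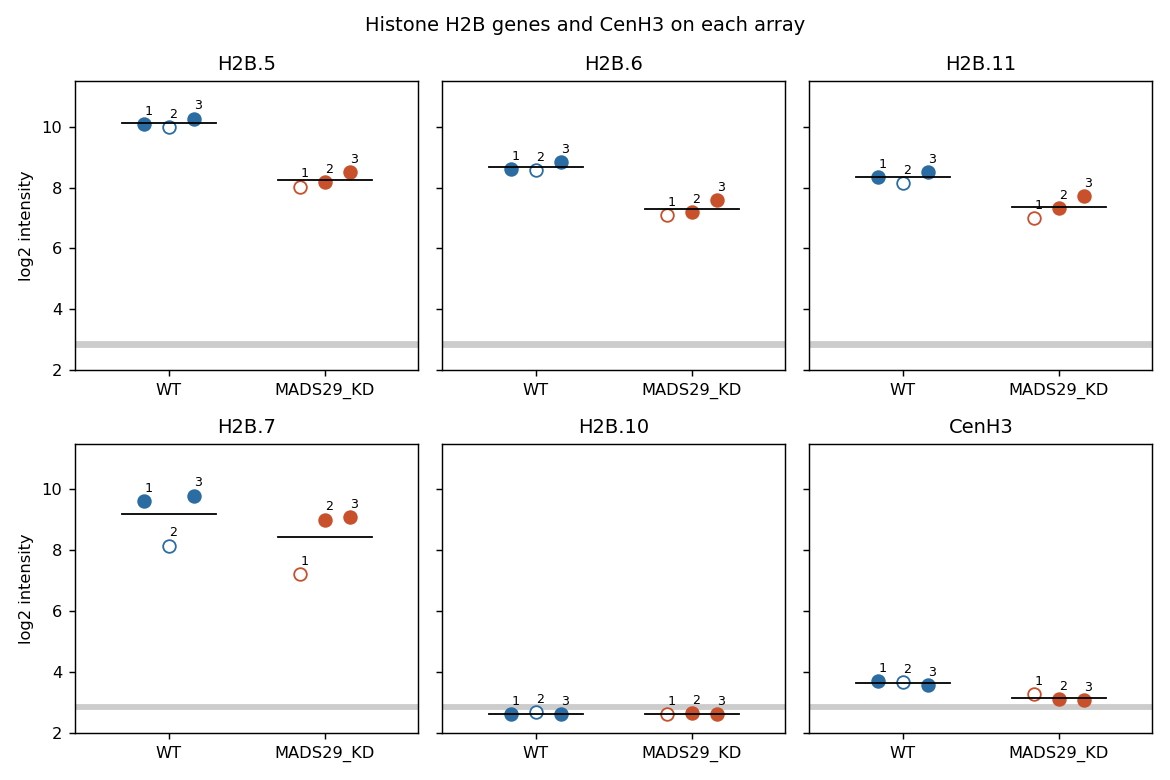
Log2 intensity of the 5 H2B genes and of *CenH3* on each array, with WT in blue, MADS29_KD in orange, replicate numbers beside the points and a line at each group mean. Open circles are the arrays with the 5′ actin signal at background, and the grey band is the background level of the 6 arrays (2.78 to 2.92). The groups separate for *H2B.5*, *H2B.6*, *H2B.11* and *CenH3*, while *H2B.7* is lowest on the open arrays and *H2B.10* lies under the band.

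*H2B.5* showed the deepest change of the 5 genes. Its log2 intensity was 10.09, 9.99 and 10.27 in WT replicates 1 to 3 and 8.03, 8.19 and 8.50 in MADS29_KD replicates 1 to 3. The groups were far apart, with the highest MADS29_KD array well under the lowest WT array. The mean went from 10.12 ± 0.14 to 8.24 ± 0.24 (SD, n = 3), a log2 difference of −1.87 ± 0.15 (SE, limma adjusted p = 0.0028). This is 3.66-fold lower, with a 95% confidence interval of 2.82-fold to 4.77-fold, and left 27.3% of the WT signal. Only 1.06% of the probe sets above background had a difference as low or lower. The call was kept when any single array was left out, with limma adjusted p between 0.0064 and 0.0201, and on the 4 arrays with 5′ actin signal (−1.83 ± 0.15, adjusted p = 0.0205).

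*H2B.6* fell by less. The WT arrays gave 8.60, 8.58 and 8.83 and the MADS29_KD arrays 7.11, 7.19 and 7.60 on the log2 scale. Again no MADS29_KD array reached the WT range. The difference was −1.37 ± 0.16 (SE, limma adjusted p = 0.00869), or 2.58-fold lower with a 95% interval of 1.94-fold to 3.43-fold. Leaving out any single array kept the call (adjusted p between 0.0086 and 0.0438). On the 4 arrays with 5′ actin signal the difference was much the same, at −1.32 ± 0.19, but limma gave adjusted p = 0.0597.

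*H2B.11* was lower on every MADS29_KD array without passing the threshold. Its log2 intensity was 8.36, 8.15 and 8.51 in WT and 6.995, 7.33 and 7.72 in MADS29_KD, so the groups did not overlap, as was also true for 33.3% of the probe sets above background. The difference was −0.99 ± 0.22 (SE), with a 95% interval of −1.55 to −0.42 and a limma adjusted p of 0.0571. By exact permutation (two-sided) p was 0.10 for *H2B.5*, *H2B.6* and *H2B.11* alike, and 3 arrays against 3 allow no smaller value. The call depended on the setting. It was made with the 5′ actin class of the arrays as a block (adjusted p = 0.0226), with array weights (−1.14, adjusted p = 0.0238), among the probe sets above background alone (adjusted p = 0.0074) and without MADS29_KD replicate 3 (−1.17, adjusted p = 0.0394). Without any other single array, and on the 4 arrays with 5′ actin signal (−0.90, adjusted p = 0.0979), it was not made.

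*H2B.7* had a wide spread within both groups. The WT arrays gave 9.62, 8.16 and 9.80 and the MADS29_KD arrays 7.21, 9.01 and 9.08 on the log2 scale. In each group the low value was that of the array with its 5′ actin signal at background, which differed from the mean of the other arrays of its group by −1.55 in WT and by −1.84 in MADS29_KD. Over the 6 arrays the groups overlapped, and the difference of −0.76 ± 0.74 (SE, limma adjusted p = 0.446) had a 95% interval of −2.69 to 1.17. Within the 2 arrays with low 5′ signal it was −0.95, with 1 array a group and no test. On the other 4 arrays it was −0.66 ± 0.08 (adjusted p = 0.0435), and with the 5′ class as a block −0.76 ± 0.09 (adjusted p = 0.0149). Both fits were run with this property of the arrays known. Leaving out single arrays moved the difference from −0.14, without MADS29_KD replicate 1, to −1.28, without WT replicate 2, and *H2B.7* was not called in any of these 6 fits. The probe set is of the x_at kind, so near-identical H2B transcripts can add to its signal. In the reference the gene also overlaps *LOC4324499*, whose own probe set was at background on all 6 arrays.

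*H2B.10* was at background on all 6 arrays, with signals of 2.61 to 2.68. Whether its level differs could not be read at this signal, and no fold is given. The 5 genes thus comprised 2 that were called lower, 2 with lower means that were not called and 1 without signal. With the 5′ class as a block 4 of the 5 were called lower. That fit also called more of all 57194 probe sets lower, at 4577 against 3589 in the fit without a block.

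**Figure D2:**
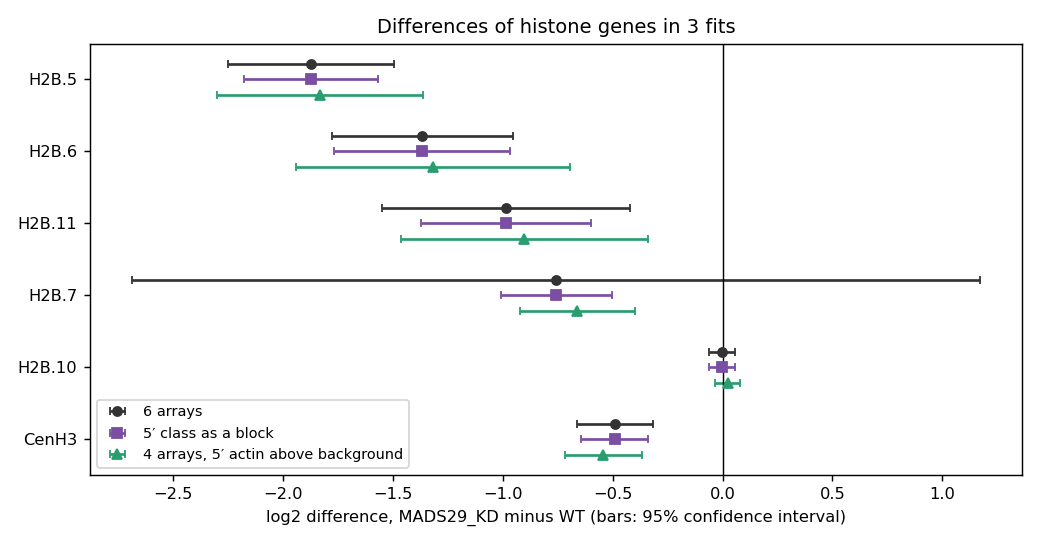
Log2 difference between MADS29_KD and WT for each H2B gene and *CenH3*, with 95% confidence intervals, in the fit of all 6 arrays (circles), with the 5′ actin class as a block (squares) and on the 4 arrays with 5′ actin signal (triangles). The interval of *H2B.7* runs from −2.69 to 1.17 in the first fit and lies wholly under 0 in the others, while the points of *H2B.5* and *H2B.6* hardly move.

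*CenH3*, for the histone that takes the place of H3 at centromeres, was lower as well, by a small amount close to background. Its log2 intensity was 3.70, 3.66 and 3.58 in WT and 3.28, 3.12 and 3.07 in MADS29_KD, with no overlap. The difference was −0.49 ± 0.07 (SE, limma adjusted p = 0.0138), a call that depended on MADS29_KD replicate 2 and on WT replicates 1 and 2, with adjusted p of 0.0509 to 0.062 once any of these was removed.

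The differences of the H2B genes were also set against each other. The log2 intensity of one gene was subtracted from that of another on the same array, and the result was compared between the groups. Of 6 pairs among the 4 genes above background, those among *H2B.5*, *H2B.6* and *H2B.11* did not overlap between the groups. How often pairs of other probe sets do so was not counted. The log2 ratio of *H2B.5* to *H2B.11* was 1.73 to 1.84 in WT and 0.77 to 1.04 in MADS29_KD, a difference of −0.89. That of *H2B.6* to *H2B.5* was −1.49 to −1.41 in WT and −1.001 to −0.90 in MADS29_KD, a difference of 0.51. For *H2B.6* to *H2B.11* the difference was −0.38. Each of these 3 gave an exact two-sided permutation p of 0.10, the smallest possible, and 0.20 after adjustment over the 6 pairs, so that no pair passed the threshold and none could with 3 arrays a group. The differences of these 3 genes also followed the order of their WT signals (means of 10.12, 8.67 and 8.34). *H2B.7*, with a WT mean of 9.19 and a difference of −0.76, did not follow that order. The part of probe brightness in the ratios was not tested. The 3 pairs with *H2B.7* overlapped between the groups (exact two-sided permutation p of 0.30 to 0.50).

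Inside each group the H2B genes moved together from array to array. In both groups replicate 3 was the highest array for *H2B.5*, *H2B.6*, *H2B.7* and *H2B.11* alike. After subtraction of the group means the values of *H2B.5* and *H2B.6* correlated at r = 0.98 over the 6 arrays, those of *H2B.5* and *H2B.11* at 0.98 and those of *H2B.6* and *H2B.11* at 0.93. With *H2B.7* the correlations were 0.64 to 0.86. These are descriptions over arrays that also share their depth of signal and their RNA, and near-identical probes can share target transcripts.

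**Figure D3:**
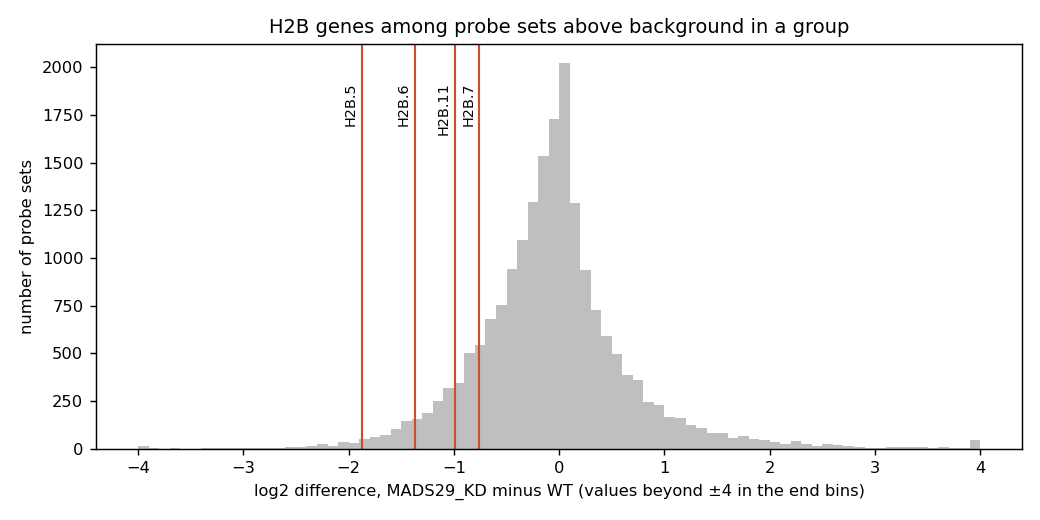
Number of probe sets (vertical axis) by log2 difference between MADS29_KD and WT (horizontal axis), for the 19520 probe sets above background in a group, with lines at the 4 H2B genes among them. *H2B.5* and *H2B.6* lie in the lower tail, with 1.06% and 3.46% of these probe sets at or under their values, and *H2B.11* and *H2B.7* closer to the bulk, with 8.12% and 13.4%.

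All 5 measured H2B genes lie on chromosome 1 of the reference assembly ASM3414082v1. In that order *H2B.3*, *H2B.4*, *H2B.10*, *H2B.7*, *H2B.6* and *H2B.5* share a stretch of 38 genes, with 1 gene between *H2B.6* and *H2B.5*, 2 between *H2B.7* and *H2B.6* and 5 between *H2B.10* and *H2B.7*. *H2B.11* is far from them, with 3506 genes in between. Of the 32 other genes of the stretch 15 were measured, 8 of them above background in a group. By limma 1 of the 15 was called lower and 2 were called higher. *HACD*, for a dehydratase of very long fatty acid synthesis, differed by −0.70 (adjusted p = 0.0246), the metallothionein gene *MT-2* by 1.01 (adjusted p = 0.000168), and *LOC4324525* by 0.76 (adjusted p = 0.0156). The gene between *H2B.6* and *H2B.5* was at background. The median over the 8 genes above background was 0.11, and the other 7 could not be read.

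**Figure D4:**
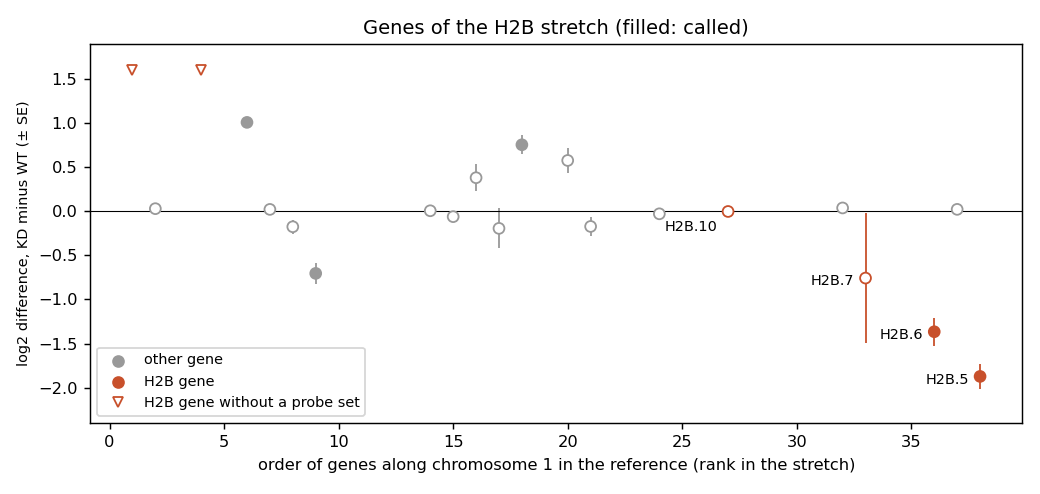
Log2 difference between MADS29_KD and WT (vertical axis, bars: SE) for the measured genes of the 38-gene stretch of chromosome 1, in gene order (horizontal axis). H2B genes are orange and other genes grey, filled where called, and open triangles at the top mark *H2B.3* and *H2B.4*, which have no probe set. The other genes lie between −0.70 and 1.01, on both sides of 0.

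Genes that act with histones were looked at in lists of gene names. The list of DNA replication, which uses up new histones, was lower for most genes, at 19 of 28 called lower and 0 higher by limma. Among all probe sets above background 18.3% were called lower. The median of the list was −1.08, or −0.94 with 4 genes at background in MADS29_KD set to their bound. All 6 of *MCM2* to *MCM7*, for the replicative helicase, were called lower, by −2.49 to −1.52. *MCM9* was not called (−0.11, adjusted p = 0.424), and *MCM8* was at background on all 6 arrays and could not be read. *MCM4* went from 5.77 to 3.29, by −2.49 ± 0.06 (limma adjusted p = 0.000201), and *OsRPA70b*, for a single-strand binding protein, by −1.81 ± 0.07 (adjusted p = 0.000445). *ORC3*, of the origin recognition complex, was at least 1.63-fold lower, as its MADS29_KD arrays were at background. *OsPCNA*, for the sliding clamp on which chromatin assembly proteins dock, differed by −2.44 ± 0.13 (adjusted p = 0.00105).

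Of 5 genes for histone chaperones, which deliver histones to DNA, 1 was called lower and 0 higher (median −0.22), a share close to the 18.3% called lower among all probe sets above background, so the count is no result about the list. The called gene was *FAS2*, for a subunit of the assembly factor that follows the replication fork, at −0.95 ± 0.10 (limma adjusted p = 0.00633), with 1 MADS29_KD array at background. *MSI1*, for another subunit of that factor, differed by −0.88 ± 0.20 (adjusted p = 0.0657). *SPT16*, *SSRP1-A* and *SSRP1-B*, for the FACT complex that handles dimers of H2A and H2B, differed by −0.22, −0.19 and 0.17 and were not called.

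Of 13 genes for histone-modifying enzymes, 6 were called lower and 0 higher (median −0.56), against 18.3% called lower among all probe sets above background. The 6 were all of the measured genes for protein arginine methyltransferases, enzymes that act on histones and on other proteins. *PRMT10* differed by −2.50 ± 0.23 (limma adjusted p = 0.00447), *PRMT1* by −2.03 ± 0.16 (adjusted p = 0.00314), *PRMT5* by −1.63 ± 0.08 (adjusted p = 0.000981) and *PRMT4* by −0.80 ± 0.11 (adjusted p = 0.0161). *PRMT3* and *PRMT7* were at background in MADS29_KD, at least 1.71-fold and 1.67-fold lower. The other 7 genes, among them the deacetylase gene *HDA703*, the acetyltransferase gene *GCN5*, the Polycomb methyltransferase gene *EZ1* and the demethylase genes *JMJ703*, *JMJ705* and *JMJ706*, ranged from −0.56 to 0.24 with adjusted p of 0.0814 and above. This grouping of the arginine methyltransferases was made after their values were seen.

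Of 34 cell cycle genes, 6 were called lower and 2 higher (median −0.11), a share close to the 18.3% called lower among all probe sets above background. The lower count fell to 3 without WT replicate 1, WT replicate 3, MADS29_KD replicate 2 or MADS29_KD replicate 3. *CYCB2-2*, for a mitotic cyclin, was at least 3.04-fold lower and *CYCA2-1* at least 1.57-fold lower, both at background in MADS29_KD (limma adjusted p = 9.59e-05 and 0.000394). *CYCD5-3* was lower by a log2 difference of −1.10 ± 0.13 (adjusted p = 0.00843), with 1 MADS29_KD array at background. *KRP6*, for an inhibitor of cyclin-dependent kinases, rose by 1.48 ± 0.23 (adjusted p = 0.0206), but in 5 of 6 fits that left out an array it was not called, WT replicate 2 being the exception (adjusted p up to 0.0843). *CDKE-1* was at 0.52 ± 0.11 (adjusted p = 0.048) and was called in 1 of those 6 fits, without MADS29_KD replicate 3.

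**Figure D5:**
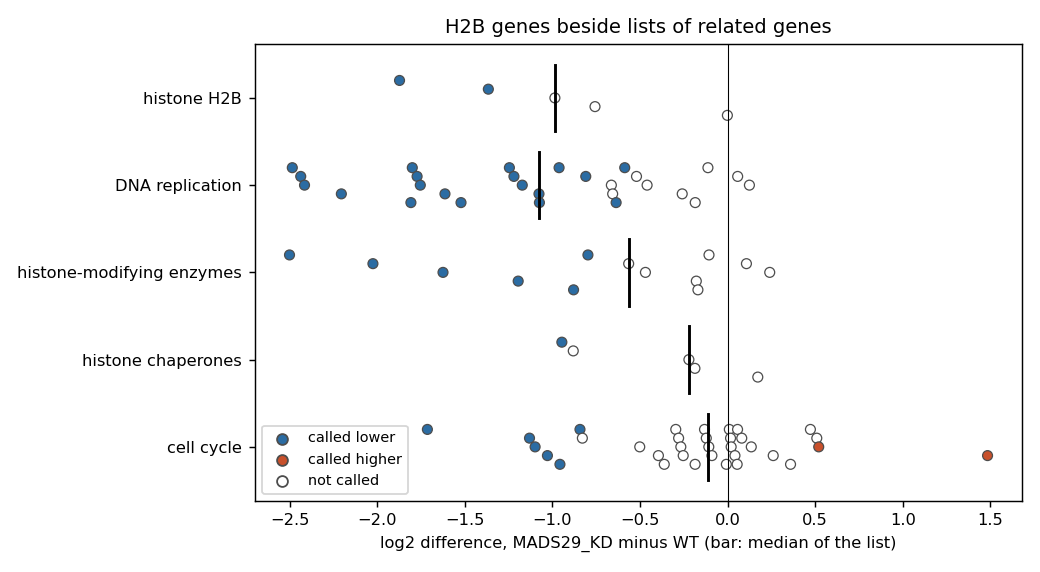
Log2 difference between MADS29_KD and WT for each measured gene of the H2B group and of 4 lists, 1 point per gene, with blue for genes called lower, orange for genes called higher, white for genes not called and a bar at each list's median. The H2B median (−0.99) lies close to that of the replication list (−1.08), and those of the modifying enzymes (−0.56), the chaperones (−0.22) and the cell cycle (−0.11) are nearer to 0.

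The profile of *H2B.5* over the 6 arrays was set against those of 2250 probe sets with a named gene and a signal above background in a group. The highest Pearson correlations were those of the expansin gene *EXP6* (r = 0.997), of *H2B.6* (0.996), of the metal transporter gene *NRAMP5* (0.995), of *PPO* (0.994) and of the chalcone synthase gene *CHS* (0.994). In MADS29_KD the signals of *EXP6* (mean of 3.05) and *NRAMP5* (mean of 2.98) were close to background, and *NRAMP5* was above it on only 2 of the 3 arrays. *H2B.11* came to 0.960 and *H2B.7* to 0.539. As 383 of the 2250 had r above 0.9, such a value mostly restates the difference between the groups, and the order among the first few rests on small differences.

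Markers of seed tissues moved between the same groups. Of 7 embryo and seed maturation genes 6 were called higher and 0 lower. Among all probe sets above background 12.9% were called higher and 18.3% lower. The log2 of the summed linear intensities of the 7 genes was 8.82 to 9.02 on the WT arrays. On the MADS29_KD arrays it was 12.86 to 12.94. Such a sum is weighted to the brightest genes of its list. *OSH1*, a homeobox gene of undifferentiated cells, was not among the called ones (−0.11, limma adjusted p = 0.262). Of 9 endosperm names listed only 4 were measured, *GLUB-5*, *SSI*, *RAG1* and *RAG2*, and all 4 were called higher (sums of 13.4 to 13.6 and 14.7 to 14.8). Of 3 genes of the green pericarp 1 was called higher and 1 lower (13.0 to 13.1 and 12.1 to 12.2). That sum mostly followed *CAB2R* (log2 means of 12.95 and 11.75). Of 3 genes listed for the nucellus 1 was called higher and 2 lower, *OsMADS29* itself among the lower ones (9.44 to 9.55 and 10.3 to 10.4). The sum of that list rose with *OsVPE1* (log2 means of 9.19 and 10.32), as the 4 endosperm genes did, while the other genes of the list fell. Whether *OsVPE1* reads the nucellus in these seeds was not tested, so the sum is not a measure of that tissue. None of the 17 markers was at background on all arrays. The part of these shifts in the values of the H2B genes was not tested.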

How the data were processed

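Intensity values, on a linear scale, were deposited by the authors for 57381 probe sets on 6 arrays, and column medians of 6.05 to 6.18. How background, summarization and normalization were done is not given in the sources used here. Log2 was taken without further normalization. Control probe sets (123 AFFX and 64 reporter) were left out, which left 57194, of which the array annotation paired 22436 with 1 gene, 95 with several and 34663 with none in the table used. Names came from the RefSeq table of assembly ASM3414082v1, which was used for gene order but for no coordinates, since no source names the build of the array. Groups were compared with limma (version 3.58.1, R 4.3.3), by linear fits with moderated variances and Benjamini-Hochberg adjustment over all probe sets. The procedure was also run on simulated data with independent noise, which does not cover effects shared within an array. Single values were compared by exact two-sided permutation. Background was the 95th percentile of 74 foreign probe sets per array. A gene at or under it on all arrays of a group has a bound ("at least"), taken against that level. Each gene of a list entered with its brightest probe set. From the lists 2 genes were dropped by their synonyms (*NAP1*, an actin regulator, and *HD2*, a flowering gene), and *CenH3* was added. Named were all H2B genes, *OsMADS29*, up to 3 called genes per direction and list, and the 5 profiles most like *H2B.5*; other genes were chosen after their values were seen. The H2B genes and the lists were chosen with earlier results of these data known. The alternatives were other scalings, filters, blocks and weights and leaving out each array. Sequences, and planned searches of promoters and of protein identity, were not used here.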

Additional observations from a re-analysis of the deposited data

How the results depend on the processing

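No alternative turned the direction of a called H2B gene. Called lower were 2 of the 5 H2B genes with quantile normalization and with arrays centred on their medians, 3 with array weights or among probe sets above background, and 4 with the 5′ actin class as a block. The fit among probe sets above background called 5277 of all its 19520 lower, and the 5′ block 4577 of 57194. At 2-fold 1 stayed called on the 4 arrays with 5′ actin signal. Without 1 array each, 2 to 3 were called lower (the same range at 2-fold), 0 higher, and *OsMADS29* lay at −2.17 to −1.82. These fits called 13 to 17 replication, 3 to 6 cell cycle, 1 to 2 chaperone and 5 to 6 modifying enzyme genes lower. The chaperone count was 2 among probe sets above background, with the 5′ block, on the 4 arrays and without MADS29_KD replicate 1. The labels do not say whether arrays with the same replicate number belong together. Deviations of same-numbered arrays correlated at −0.53, −0.53 and 0.43, and WT replicate 2 went best with MADS29_KD replicate 1 (0.67). Those 2 arrays share a 5′ actin signal at background, which can weigh on these correlations, so they cannot settle whether the arrays are paired. With the replicate block, *OsMADS29* stayed at −1.96 (limma adjusted p = 0.0796), and 5 replication and 2 modifying enzyme genes were called. Over all probe sets that block called 1143 lower and 997 higher, against 3589 and 2901. Without WT replicate 1 these were 2355 and 1557, without WT replicate 3 2097 and 1499, and without MADS29_KD replicate 2 2203 and 2085. Array weights gave 4075 and 4765.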

Other observations

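A further pair of probe sets carries the same cluster number in its name as those of *H2B.6* and *H2B.10* but is paired with no gene in the annotation used here, so neither is named. One of them was far above background on every array, at 8.63 to 9.15 on the log2 scale in WT and 8.84 to 9.27 in MADS29_KD. It differed by 0.25 ± 0.19 (SE, limma adjusted p = 0.346), and its groups overlapped. The other was at 8.29 to 8.40 in WT and 7.84 to 8.12 in MADS29_KD, a difference of −0.36 ± 0.08 (adjusted p = 0.059). Neither showed a difference of the size seen for *H2B.6* (−1.37). Which transcripts they read was not tested.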
